A study of Mus musculus with 7 samples.

Results

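The common gamma chain family was followed through 9 genes of the deposited expression table, out of 23420 rows, in the hearts of 7 mice. The members were taken by name: the shared receptor chain Il2rg, the partner chains Il2ra, Il2rb, Il4ra, Il7r, Il15ra and Il21r, the ligand Il15 and the kinase Jak3. Each name matched 1 row, and each of the 9 passed the filter on low values. Total RNA from cardiac ventricle was sequenced from 4 control mice labelled Ctla4+/+;Pdcd1-/- and 3 ICI-myocarditis mice labelled Ctla4+/-;Pdcd1-/-, where ICI stands for immune checkpoint inhibitor. All were 3 to 6 weeks old and untreated. The groups therefore differ by the loss of 1 Ctla4 allele on a background without Pdcd1 that both carry, and no animal with intact Pdcd1 was among them. The labels give neither sex, litter nor batch, and p-values measure the spread between these 7 libraries. Those of fits relative to a reference gene understate it.

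Receptors of this family pair the common gamma chain with a private chain that gives each cytokine its specificity. The gamma chain carries JAK3, and the chain that signals with it (the beta chain for IL-2 and IL-15) carries JAK1. Ligand binding lets these kinases activate STAT5, STAT6 or STAT3. The cytokines IL-2, IL-4, IL-7, IL-9, IL-15 and IL-21 use it, mainly to drive the growth, survival and differentiation of lymphocytes, and in people loss of the chain or of JAK3 causes severe combined immunodeficiency. IL-15 is usually presented by IL-15 receptor alpha on one cell to the IL-2 receptor beta and gamma chains on another, and macrophages, stromal cells and muscle all make Il15 transcripts.

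Sequence upstream of the annotated start is shown for 3 receptor chains that were higher in ICI-myocarditis and for Il2ra, which did not pass the test. RefSeq promoter windows on GRCm38.p6 were matched by symbol for 7 of the 9 members, not for Il15 and Il2rb. Bases inside exons of GENCODE M21 were left out, so that the Il7r stretch is shorter. Capitals mark a match to the STAT recognition pattern called GAS (letters TTCNNNGAA, either strand). The stretches are Il2rg, chrX:101268256-101268505, minus strand; Il21r, chr7:125603179-125603428, plus strand; Il7r, chr15:9529877-9530040, minus strand; and Il2ra, chr2:11642542-11642791, plus strand, each written 5′ to 3′ along its gene.
Il2rg: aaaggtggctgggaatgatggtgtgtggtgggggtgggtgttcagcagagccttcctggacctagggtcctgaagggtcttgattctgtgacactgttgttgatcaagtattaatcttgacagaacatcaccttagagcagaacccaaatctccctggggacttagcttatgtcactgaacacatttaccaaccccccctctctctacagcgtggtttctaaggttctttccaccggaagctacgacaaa
Il21r: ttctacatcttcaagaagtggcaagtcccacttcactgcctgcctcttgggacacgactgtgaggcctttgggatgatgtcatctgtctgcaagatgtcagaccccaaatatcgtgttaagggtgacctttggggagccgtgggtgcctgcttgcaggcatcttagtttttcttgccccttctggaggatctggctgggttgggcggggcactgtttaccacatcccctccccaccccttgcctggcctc
Il7r: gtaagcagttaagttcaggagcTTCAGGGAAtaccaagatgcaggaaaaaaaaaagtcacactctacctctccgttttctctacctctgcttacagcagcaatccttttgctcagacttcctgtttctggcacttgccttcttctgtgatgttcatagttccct
Il2ra: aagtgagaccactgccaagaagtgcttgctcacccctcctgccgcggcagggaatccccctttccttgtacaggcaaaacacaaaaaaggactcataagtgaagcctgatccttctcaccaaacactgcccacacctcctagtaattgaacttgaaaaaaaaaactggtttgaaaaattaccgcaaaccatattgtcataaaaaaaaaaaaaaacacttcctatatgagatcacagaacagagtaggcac
The GAS pattern occurred in 1 of 8 member windows of 250 bases, the 1 before Il7r, 142 to 134 bases ahead of the RefSeq start, in an intron of a GENCODE M21 transcript. It was present in 7.02% of all 32851 promoter windows. The STAT6 pattern (TTC and GAA with 4 bases between), the interferon-stimulated response element (GAAA and GAAA with 2 bases between), the NF-kappaB pattern (GGGA and TTTCC with 1 base between) and the ETS pattern CCGGAAGT, each on either strand, had no match in the member windows, against 5.85%, 2.98%, 0.356% and 2.88% of all windows. The letters describe these windows only.

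Libraries held 20931730 to 39037176 reads assigned to genes. The labelled tissue carried its defining markers, with Myh6 between 402800 and 1196000 normalized counts in every library. Control 2 stood apart from the other controls on the first principal component (2.3, against -96.6 to -61.1 for controls 1, 3 and 4 and 58.8 to 104.9 for ICI-myocarditis), so results that turn on it are given with and without it. Of the targeted genes, Ctla4 rose by 2.40 on the log2 scale, from 63.3 ± 37.4 to 302 ± 63.4 normalized counts (adjusted p by limma = 0.00852). Pdcd1 had 2.50 to 244 normalized counts in controls and 1096 to 1481 in ICI-myocarditis. It passed the filter on low values only through ICI-myocarditis, so neither its p nor its fold is given. Counts per gene therefore did not check either genotype.

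Of the 9 members, 5 rose in ICI-myocarditis, 0 fell and 4 did not pass. Il2rg, Il2rb, Il4ra, Il7r and Il21r were the 5 that rose, by 1.88 to 5.32 on the log2 scale. Among all 15236 genes tested, 15.7% had an limma adjusted p below 0.05, 11.7% upward and 4.0% downward. In 6 of the 9 members every ICI-myocarditis library lay above every control, as in 17.3% of all genes tested. The median log2 fold change was 1.88 over the members and -0.02 over all genes tested. A positive fold change means a higher level in ICI-myocarditis, on a scale of log2(normalized count + 1). Normalized counts are reads divided by a size factor of each library. Without control 2 the members that rose numbered 6, beside 2248 of 15104 genes tested. Leaving out ICI-myocarditis 3 gave 4, beside 827 of 15024.

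**Figure D1:**
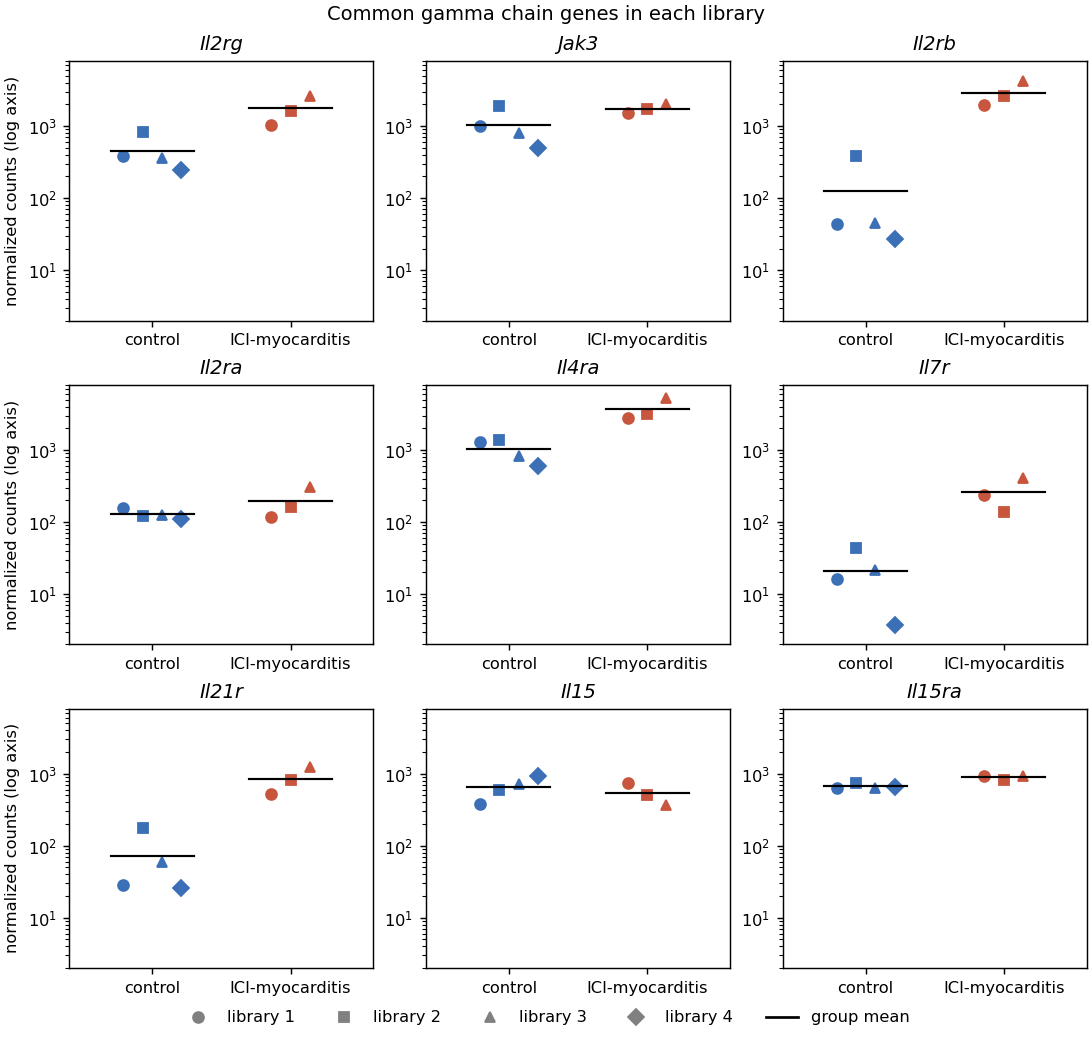
Normalized counts (log axis) of the 9 genes in each of 4 control (blue) and 3 ICI-myocarditis libraries (red), marker shape giving the library number within its group and the bar the group mean. Groups are fully apart for Il2rg, Il2rb, Il4ra, Il7r, Il21r and Il15ra, and control 2 (square) is the highest control in 7 panels.

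Il2rg encodes the shared chain itself and lies at chrX:101264378-101268255 on the minus strand of GRCm38. Controls 1 to 4 had 383, 836, 361 and 243 normalized counts of Il2rg, and ICI-myocarditis 1 to 3 had 1050, 1641 and 2597. All 3 ICI-myocarditis libraries were above the highest control, control 2, which itself lay above the other controls. Il2rg rose from 456 ± 261 (SD, n = 4) to 1763 ± 781 (SD, n = 3), 2.01 higher on the log2 scale (standard error 0.429, adjusted p by limma = 0.0143). The call was lost without ICI-myocarditis 3 (log2 fold change 1.68, adjusted p by limma = 0.0628). A gene model on the same strand, Gm20489, overlaps Il2rg and was not analysed here, and its reads could not be told apart.

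Jak3, the kinase bound to the shared chain, lies at chr8:71676296-71690575. It had 1002, 1895, 798 and 502 normalized counts in the controls and 1541, 1715 and 2006 in ICI-myocarditis. Control 2 was higher than 2 of the 3 ICI-myocarditis libraries, so the groups overlapped. The log2 fold change of Jak3 was 0.90 with a 95% interval of 0.03 to 1.77 (adjusted p by limma = 0.152). It passed without control 2 (1.24, adjusted p by limma = 0.0118) and with library quality weights in limma-voom (0.99, adjusted p by limma = 0.0167), and in none of the other 16 alternatives. Insl3, a hormone gene overlapping Jak3 on the same strand, stayed between 15.1 and 85.1 normalized counts.

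Il2rb encodes the beta chain used by both the IL-2 and the IL-15 receptor, and had the largest fold change of the 9. It lies at chr15:78479256-78495271. Normalized counts of Il2rb were 44.4, 389, 44.7 and 27.5 in the controls and 1954, 2604 and 4174 in ICI-myocarditis. Controls 1, 3 and 4 were close together, control 2 was 8.76 times their median, and the lowest ICI-myocarditis library was still above control 2. Il2rb rose from 126 ± 175 (SD, n = 4) to 2911 ± 1141 (SD, n = 3), by 5.32 on the log2 scale (standard error 0.782, adjusted p by limma = 0.00414). The size depended on control 2. Without that library the log2 fold change was 6.15 (adjusted p by limma = 1.05e-05), and edgeR on the recovered reads gave 4.48 (edgeR adjusted p = 0.0156).

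Il2ra encodes the alpha chain that gives the IL-2 receptor high affinity, carried by activated and regulatory T cells, and it did not pass the test. Its counts were 154, 120, 125 and 110 in the controls and 117, 162 and 309 in ICI-myocarditis. ICI-myocarditis 3 held the highest value, while ICI-myocarditis 1 lay within the range of the controls. The log2 fold change of Il2ra was 0.51, with a 95% interval of -0.26 to 1.28 (adjusted p by limma = 0.362), and 0.12 without ICI-myocarditis 3. Il2ra lies at chr2:11642807-11693193, 12.1 kb ahead of Il15ra on the same strand with 0 protein-coding genes between them. A gene model on the same strand, Gm37881, overlaps Il2ra and was not analysed here.

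Il4ra encodes the IL-4 receptor alpha chain, which many myeloid, stromal and lymphoid cells carry, and which also pairs with Il13ra1 in a receptor for IL-4 and IL-13. Its counts were 1294, 1387, 827 and 596 in the controls and 2737, 3151 and 5290 in ICI-myocarditis, without overlap. Il4ra rose from 1026 ± 377 to 3726 ± 1370, by 1.88 on the log2 scale (standard error 0.343, adjusted p by limma = 0.00814). Il21r, the IL-21 receptor of B, T and natural killer (NK) cells, is the next protein-coding gene, 24.0 kb further along (Il4ra at chr7:125552120-125579474 and Il21r at chr7:125603429-125633570). Il21r had 28.2, 174, 59.2 and 26.3 normalized counts in the controls and 515, 828 and 1230 in ICI-myocarditis. It rose by 3.91 on the log2 scale (standard error 0.621, adjusted p by limma = 0.00506). Both neighbours were apart between groups, and the difference between their fold changes was not tested. A gene model on the opposite strand, Gm44876, overlaps Il4ra and was not analysed here.

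Il7r encodes the IL-7 receptor alpha chain of naive and memory T cells, which also forms the receptor for thymic stromal lymphopoietin (TSLP) with Crlf2. It lies at chr15:9505788-9530176. Counts of Il7r were 16.1, 43.2, 21.2 and 3.75 in the controls and 235, 139 and 410 in ICI-myocarditis. The groups did not overlap, and control 4 rested on 3 reads. Il7r rose by 3.83 on the log2 scale (standard error 0.705, adjusted p by limma = 0.00836), or by 3.22 without control 4 (adjusted p by limma = 0.00726).

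Il15, the ligand among the 9, did not pass the test. It lies at chr8:82331632-82403222. Its counts were 382, 593, 710 and 915 in the controls and 735, 514 and 372 in ICI-myocarditis. The lowest values of the 7 libraries were control 1 and ICI-myocarditis 3, and the groups overlapped throughout. The log2 fold change of Il15 was -0.25, with a 95% interval of -1.0 to 0.49 (adjusted p by limma = 0.663), and its sign was negative in all 18 alternatives (-0.50 to -0.01).

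Il15ra encodes the chain that presents IL-15. It lies at chr2:11705290-11734317. Il15ra counts were 624, 749, 641 and 652 in the controls and 926, 813 and 918 in ICI-myocarditis, the narrowest spread of the 9 genes in either group relative to its mean. All ICI-myocarditis libraries were above all controls, by a small margin. The log2 fold change was 0.41 with a 95% interval of 0.03 to 0.79, and it did not pass over all genes tested (adjusted p by limma = 0.139), nor in any of the 18 alternatives (lowest adjusted p 0.0831, with DESeq2).

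In the authors' deposited table the same 5 of 9 members were past an adjusted p of 0.05, beside 20.2% of the genes with an adjusted p there (12.9% upward). The largest log2 fold changes of members in the authors' deposited table were 4.53 for Il2rb, 3.64 for Il7r and 3.58 for Il21r.

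**Figure D2:**
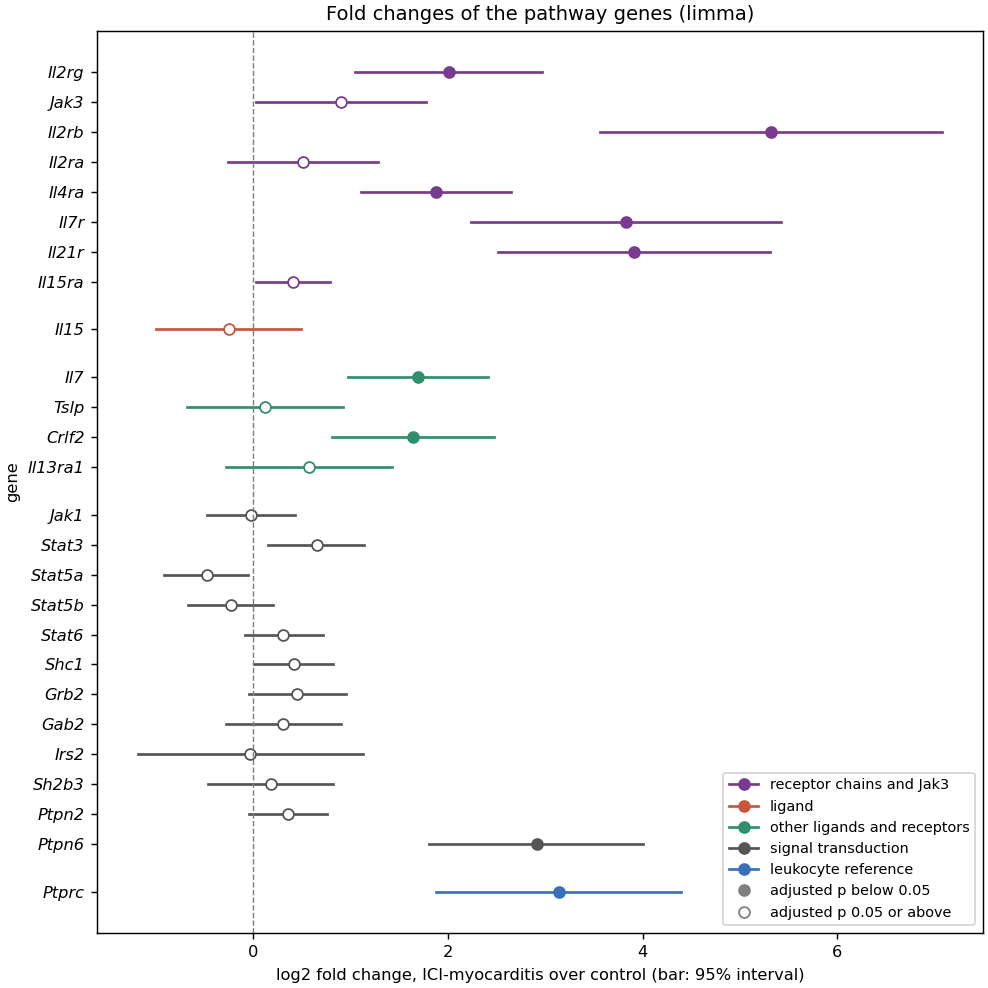
Log2 fold change of each gene with its 95% interval from limma, filled where the adjusted p was below 0.05, for the 9 members, other tested ligands and receptor chains, signalling genes and Ptprc (Il21 is left out because its controls were near 0). Il2rb has the highest estimate, 5.32, while Il15 (-0.25) and most signalling genes lie near 0.

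Levels of different genes were compared per kb of exon, with exon lengths from GENCODE M21. In controls the means fell in the order Il15 (288 ± 98.4 normalized counts per kb), Jak3 (196 ± 112), Il2rg (191 ± 109), Il4ra (171 ± 62.8), Il15ra (150 ± 12.6), Il2rb (29.5 ± 40.8), Il2ra (22.3 ± 3.33), Il21r (21.6 ± 21.0) and Il7r (4.52 ± 3.53). Of neighbours in that order, only Il15ra and Il2rb did not overlap between their control libraries. Read within each library, Il21r was also above Il7r in all 4 controls. In ICI-myocarditis the order was Il2rg (738 ± 327), Il2rb (679 ± 266), Il4ra (621 ± 228), Jak3 (328 ± 43.9), Il21r (258 ± 108), Il15 (239 ± 80.8), Il15ra (199 ± 14.2), Il7r (56.1 ± 29.5) and Il2ra (34.3 ± 17.6). Neighbours did not overlap at Il4ra over Jak3 and at Il15ra over Il7r. Within each of the 3 libraries Jak3 was also above Il21r, and Il7r above Il2ra. The per-kb levels show Il15 in first place in controls and sixth in ICI-myocarditis, and Il2rb moving from sixth to second.

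**Figure D3:**
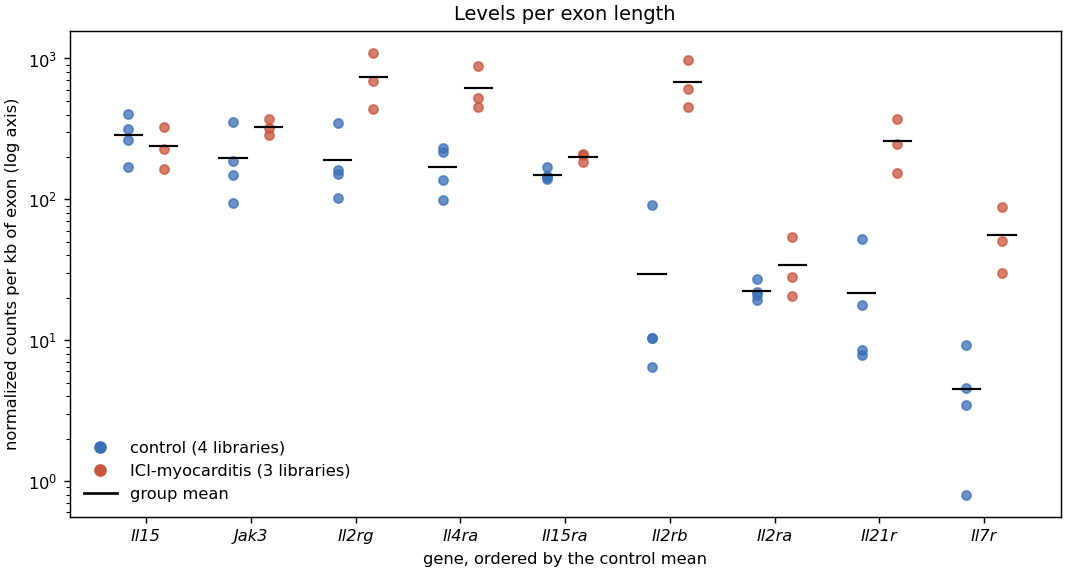
Normalized counts per kb of exon (log axis) of each gene, ordered by the control mean, with points for libraries and bars for group means. Il15 is first by the control mean (288) and Il2rg by the ICI-myocarditis mean (738).

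The balance between private and shared chains was then read within each library, as the ratio of levels per kb. For Il2rb over Il2rg this was 0.0645, 0.259, 0.0690 and 0.0631 in the controls and 1.04, 0.884 and 0.895 in ICI-myocarditis. By this measure the beta chain transcript was far below the gamma chain transcript in every control and close to it in every ICI-myocarditis heart. The size of the ratio rests on GENCODE M21 exon lengths, while the annotation used for counting is not given. It also rests on Il2rg counts, a gene that Gm20489 overlaps. Il21r over Il2rg went from 0.0529 to 0.149 in controls to 0.340 to 0.362 in ICI-myocarditis, and Il7r over Il2rg from 0.00787 to 0.0301 to 0.0434 to 0.115. Il4ra over Il2rg overlapped, at 0.659 to 1.34 in controls and 0.764 to 1.04 in ICI-myocarditis. Il2ra over Il2rg lay lower in ICI-myocarditis (0.0412 to 0.0497) than in controls (0.0598 to 0.190), as did Jak3 over Il2rg (0.344 to 0.655, against 0.922 to 1.17). Il2ra exceeded Il2rb 2.10 to 3.00 times in controls 1, 3 and 4, was 0.231 of it in control 2, and was 0.0448 to 0.0555 of it in ICI-myocarditis. The Il15ra over Il15 ratio overlapped between groups (0.362 to 0.831 and 0.641 to 1.25).

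**Figure D4:**
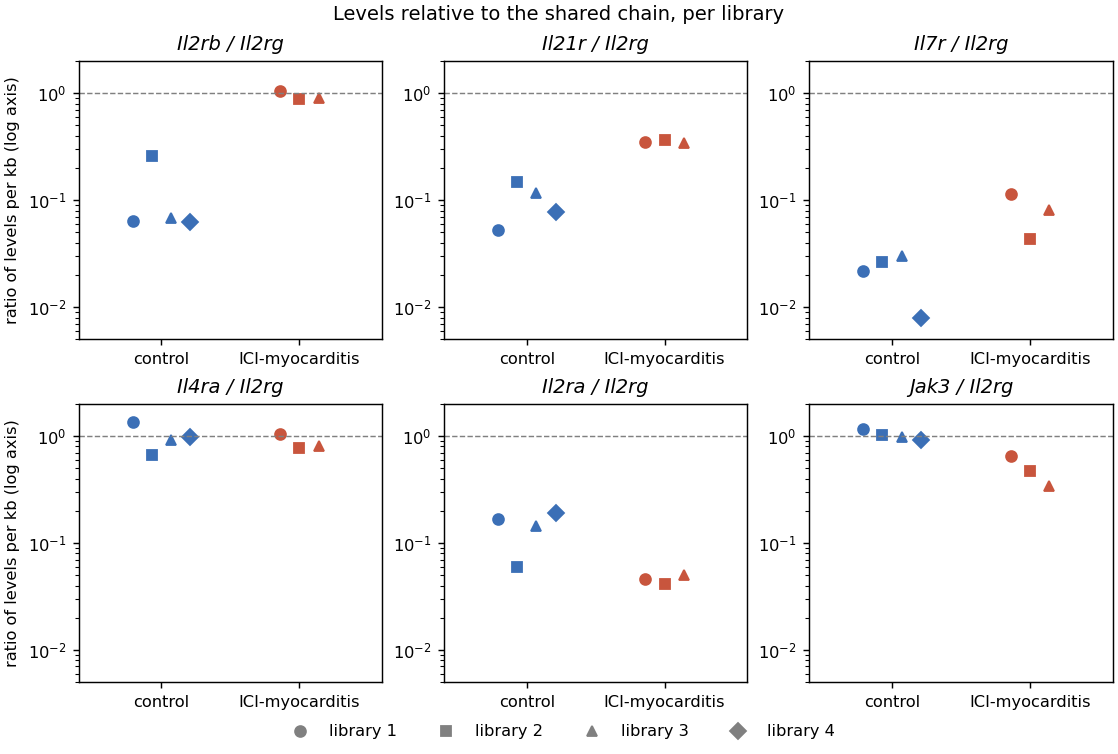
Ratio of each gene's level per kb to that of Il2rg in the same library (log axis, dashed line at 1), controls in blue and ICI-myocarditis in red, marker shape giving the library number. Il2rb over Il2rg reaches 0.884 to 1.04 in ICI-myocarditis against at most 0.259 in controls.

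Whether members changed by another amount than Il2rg was tested by fitting every gene relative to Il2rg. In that fit 2.38% of 15235 genes were relatively higher and 82.1% relatively lower. Every gene shares the error of Il2rg there, so p-values and intervals of this fit are too small for 7 libraries. Il2rb (3.32, adjusted p by limma = 0.000178), Il21r (1.90, adjusted p by limma = 0.00378) and Il7r (1.82, adjusted p by limma = 0.0058) rose more than Il2rg on the log2 scale. Il15 (-2.26, adjusted p by limma = 0.00381), Il15ra (-1.60, adjusted p by limma = 0.0170) and Il2ra (-1.50, adjusted p by limma = 0.0146) were relatively lower. For Il4ra the difference from Il2rg was -0.13 with a 95% interval of -1.34 to 1.08 (adjusted p by limma = 0.846), and for Jak3 -1.11 with an interval of -2.30 to 0.08 (adjusted p by limma = 0.0777). The calls of Il15ra and Il2ra did not hold without certain single libraries. Il15ra missed the threshold without control 3, ICI-myocarditis 2 or ICI-myocarditis 3 (adjusted p by limma = 0.0539, 0.0766 and 0.0847) and Il2ra without control 1 or ICI-myocarditis 2 (0.0524 and 0.0694). Jak3 passed without control 2 (adjusted p by limma = 0.0339).

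T cell, macrophage and monocyte markers rose along with the receptor chains that rose, while most B cell and mast cell markers did not. The counts below stand beside 11.7% of all genes tested that rose and 4.0% that fell. Ptprc, which encodes the leukocyte surface protein CD45, had 483, 2874, 1108 and 518 normalized counts in the controls and 8012, 6879 and 10490 in ICI-myocarditis (log2 fold change 3.14, standard error 0.556, adjusted p by limma = 0.00731). All 10 T cell markers rose (median log2 fold change 4.41), with a summed level of 288 to 1713 normalized counts in controls and 6022 to 9456 in ICI-myocarditis. All 10 macrophage and monocyte markers rose (median 2.57, summed level 11870 to 17630 and 49600 to 75270). Of 5 tested NK cell markers 3 rose (median 3.85, summed level 15.0 to 264 and 610 to 1110), with Klra8 at 0 in all libraries. Those 3, Eomes, Klre1 and Klrd1, passed the filter on low values only through ICI-myocarditis, so the NK count is a description only. The T cell marker Cd3d and the regulatory T cell marker Il10 passed it the same way. Regulatory T cell markers rose in 4 of 5 cases (median 2.40, summed level 489 to 892 and 1527 to 1896). Foxp3, their defining gene, did not pass (2.42, adjusted p by limma = 0.0520), and 1 of the 4 that rose was Ctla4, whose allele differs between the groups. The call of Foxp3 turned on control 2. Without that library 5 regulatory T cell markers, Foxp3 among them, and 4 NK cell markers rose, beside 2248 of 15104 genes tested. Foxp3 then passed the filter on low values only through ICI-myocarditis, so its call there is a description only. Of 5 tested B cell markers 1 rose (median -0.22, summed level 70.1 to 232 and 154 to 175). Mast cell and type 2 innate lymphoid markers gave 1 higher and 2 lower of 5 tested (median -1.05, summed level 482 to 1269 and 644 to 954). The 2 lower, Cpa3 and Mcpt4, passed the filter on low values only through controls. Of 6 thymus markers 1 was tested, not called (summed level 15.0 to 125 and 47.1 to 86.3), with Foxn1 at 0 throughout. Control 2 had the highest summed level among controls for each of these immune and thymus lists, and for the endothelial list. Its summed cardiomyocyte and fibroblast levels were the lowest among controls. Of tissue cells, 4 of 6 endothelial markers fell (median -1.12, summed level 25430 to 64040 and 15950 to 23490), 2 of 6 fibroblast markers rose (median 0.61, 23440 to 39430 and 42890 to 81280) and 1 of 8 cardiomyocyte markers, Nppa, rose (median of the 8 -0.71, 2330000 to 4616000 and 1945000 to 2834000). Without control 2, 1 cardiomyocyte marker also fell, beside 1085 of 15104 genes tested. In bulk tissue more cells of a type and more RNA per cell cannot be told apart, and the part of cell numbers in the members' changes was not tested.

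The members were also fitted relative to Ptprc. In that fit 0.637% of 15235 genes were relatively higher and 90.9% relatively lower. Its p-values and intervals, and those against the T cell markers, are too small for 7 libraries, because every gene shares the reference's error. Il2rb rose more than Ptprc, by 2.18 on the log2 scale (standard error 0.792, adjusted p by limma = 0.00689). With the mean of the 10 T cell markers as reference, chosen after the data had been seen, the difference was 1.21 (95% interval -0.66 to 3.07, adjusted p by limma = 0.210), and without control 3 it was 1.91 relative to Ptprc (adjusted p by limma = 0.0570). Il21r (0.77, 95% interval -0.70 to 2.24) and Il7r (0.69, -0.72 to 2.10) did not differ from Ptprc past the threshold (adjusted p by limma = 0.317 and 0.350), nor did Il2rg (-1.13, -2.77 to 0.51, adjusted p by limma = 0.186) and Il4ra (-1.26, -2.96 to 0.44, adjusted p by limma = 0.156). Il2rg and Il4ra were relatively lower than Ptprc without control 2 (-1.32 and -1.62, adjusted p by limma = 0.0190 and 0.00498), and relatively lower than the T cell markers (-2.11 and -2.23, adjusted p by limma = 0.0368 and 0.0316). Jak3 (-2.24, adjusted p by limma = 0.0100), Il2ra (-2.63, adjusted p by limma = 0.000596), Il15ra (-2.73, adjusted p by limma = 0.00148) and Il15 (-3.39, adjusted p by limma = 0.00012) were relatively lower, as most genes were. The call of Jak3 was lost without ICI-myocarditis 1 (adjusted p by limma = 0.0539). Against the T cell markers, 94.6% of genes were relatively lower and 0.131% higher.

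**Figure D5:**
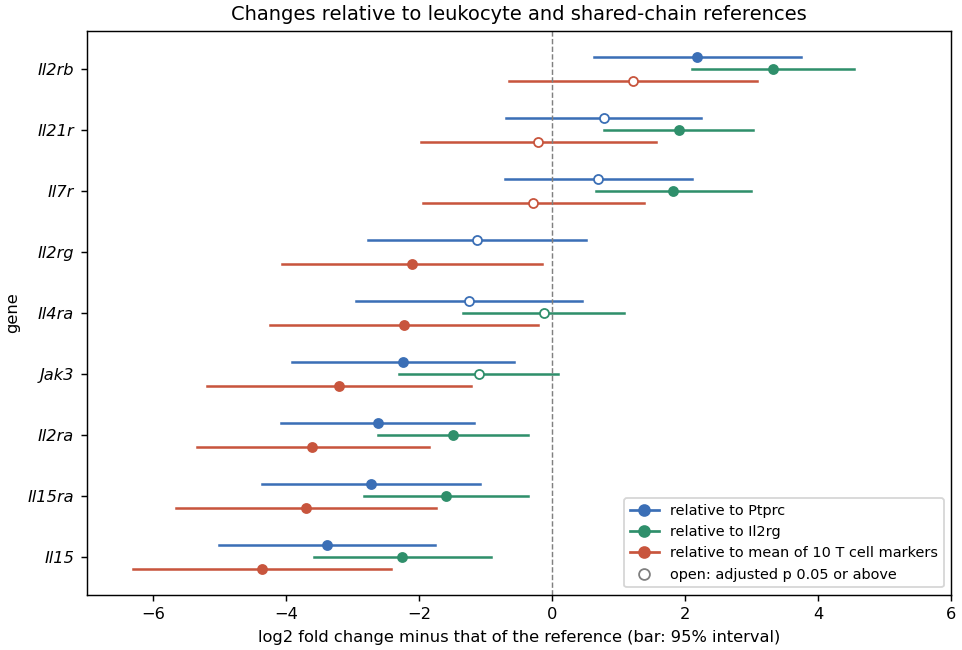
Log2 fold change of each member minus that of a reference with its 95% interval, for Ptprc (blue), Il2rg (green) and the mean of 10 T cell markers (red), filled where the adjusted p was below 0.05. Il2rb lies above Ptprc (2.18) and Il2rg (3.32), and Il15 lies lowest against each reference. The intervals are too narrow for 7 libraries, because every gene shares the reference's error.

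Of the other ligands, Il2, Il4, Il7, Il9 and Il21 use the shared chain, and Tslp was listed with them because its receptor holds Il7r, without the gamma chain. Among these 6, Il7 rose, Tslp did not pass, Il2, Il4 and Il9 were too low to test and Il21 is given by its reads. Il7, the survival factor for T cells made by stromal cells, had 26.2, 39.5, 29.0 and 22.5 normalized counts in controls against 89.0, 99.3 and 97.0 in ICI-myocarditis. It rose by 1.69 on the log2 scale (standard error 0.319, adjusted p by limma = 0.00873). Il21, a product of helper T cells, had 0, 4, 0 and 0 reads in controls and 13, 35 and 46 in ICI-myocarditis. It passed the filter on low values only through the group where it was high, so neither its p nor its fold is given. Tslp did not pass (0.12, 95% interval -0.68 to 0.92, adjusted p by limma = 0.863). Il2 had 1, 1, 2 and 0 reads in controls and 3, 6 and 6 in ICI-myocarditis, which put all ICI-myocarditis libraries above all controls on a few reads and was not tested. Il4 had 0 to 4 reads in both groups and was not tested. Il9 had 0 reads in all libraries, which allows up to 3 reads in each, a limit that covers counting error only.

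Of 3 other receptor chains, 1 rose, 1 did not pass and Il9r was too low to test (0 to 3 reads and 2 to 16 reads). Crlf2, the TSLP receptor chain that pairs with Il7r, had 371, 392, 180 and 179 normalized counts in controls and 603, 749 and 1207 in ICI-myocarditis. It rose by 1.64 on the log2 scale (standard error 0.368, adjusted p by limma = 0.0174), and missed the threshold without control 3 or ICI-myocarditis 3 (adjusted p by limma = 0.0564 and 0.0771). Il13ra1 did not pass (0.57, adjusted p by limma = 0.355).

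Of 12 signal transduction genes, 1 rose, 0 fell and 11 did not pass, with a median log2 fold change of 0.31. The gene that rose was Ptpn6, which encodes SHP-1, a phosphatase of blood cells that restrains JAK signalling. Ptpn6 had 149, 753, 304 and 229 normalized counts in controls and 1846, 1876 and 3238 in ICI-myocarditis (log2 fold change 2.91, standard error 0.485, adjusted p by limma = 0.006). Among the 11 that did not pass, Stat3, Stat6, Shc1 and Ptpn2 lay above every control in all ICI-myocarditis libraries, with log2 fold changes of 0.65, 0.31, 0.42 and 0.36 (adjusted p by limma = 0.0810, 0.283, 0.161 and 0.207). Stat5a, the main STAT of IL-2, IL-7 and IL-15 together with Stat5b, was lower in all ICI-myocarditis libraries (829 to 1184) than in any control (1292 to 1659), and did not pass (-0.48, adjusted p by limma = 0.128).

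STAT5 target genes rose in 8 of 14 cases, with 0 lower and a median of 1.02, beside 11.7% of all genes tested higher and 4.0% lower. Socs1 and Socs3, feedback inhibitors of JAKs, rose by 4.55 and 3.16 on the log2 scale (adjusted p by limma = 0.00366 and 0.00414). Myc, a growth regulator, rose by 2.07 (adjusted p by limma = 0.00496) and Gzmb, the cytotoxic protease granzyme B, was higher by 5.30. Gzmb passed the filter on low values only through ICI-myocarditis, so no p is given. Osm and Ifng, also among the 8, passed it the same way. Control 2 was the highest control for Socs1 (185 normalized counts, others 22.5 to 46.4) and Gzmb (152, others 4.03 to 12.3). Without it Socs1 rose by 5.17 and Gzmb by 6.33, while Gzmb rose by 4.69 without control 1 and by 4.08 with edgeR. Several of these genes also answer to interferons or are products of T and NK cells. Cish, a feedback inhibitor induced by STAT5, had 1214 to 3029 normalized counts in controls and 2552 to 4384 in ICI-myocarditis and did not pass (0.74, adjusted p by limma = 0.222). It was named after its values were seen.

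IL-4 and STAT6 target genes moved both ways, with 5 of 10 higher, 2 lower and a median of 1.79. Among all genes tested the shares were 11.7% higher and 4.0% lower. Arg1, which encodes arginase in macrophages, rose from 22.0 ± 7.67 to 328 ± 131 normalized counts (3.82 on the log2 scale, adjusted p by limma = 0.00251). Pdcd1lg2, a ligand of PD-1, was higher by 5.05 and the chemokine gene Ccl22 by 4.95. Both passed the filter on low values only through ICI-myocarditis, with 3.03 to 14.8 (Pdcd1lg2) and 0 to 13.6 (Ccl22) normalized counts in controls, so no p is given. Ccl17, also among the 5, passed it the same way. Mrc1 rose (0.79, adjusted p by limma = 0.0395) and Mgl2 fell (-2.31, adjusted p by limma = 0.0187), and neither depended on a single group for the filter. Retnla, Chil3 and Cd209a did not pass (adjusted p by limma = 0.998, 0.0885 and 0.830). These genes were named after their values were seen. Whether IL-4 had a part in any of these changes was not tested. The fold changes of Pdcd1lg2 and Ccl22 depended on the setting. Pdcd1lg2 ranged from 4.44 with a pseudocount of 5 to 5.75 without ICI-myocarditis 1. Ccl22 ranged from 3.89 with a pseudocount of 5 to 5.55 without control 2, and was 4.26 without control 4. Ccl24, an eosinophil chemokine gene, fell from 56.4 ± 10.9 to 6.26 ± 7.76 normalized counts (-3.50 on the log2 scale). It passed the filter on low values only through controls, so no p is given. ICI-myocarditis 2 held 15.2 and the other two 2.05 and 1.53, and the log2 fold change of Ccl24 was -4.35 without ICI-myocarditis 2 and -2.64 with a pseudocount of 5. Without control 2, 9 STAT5 target genes and 6 IL-4 and STAT6 target genes rose, and 2 of the latter fell. In that setting 2248 of 15104 genes tested rose and 1085 fell.

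The genes most like each member were sought by Pearson's r over the 7 libraries on the log2 scale, among 12318 other genes with a mean of at least 50 normalized counts. The libraries share the group difference, and each r was picked as among the highest of 12318 over only 7 libraries. High values arise from such picking alone, so they are descriptions. Il2rb was most like Ccl5, Psd4 and Il10ra (r = 0.999 for each). Il2rg was most like Tmem173 (0.998), Pou2f2 and Hps1 (0.997 each), Il21r like Slfn8, Ccl4 (0.998 each) and Lacc1 (0.997), Il4ra like Rassf4 (0.998), Gpr176 and Shisa5 (0.995 each), and Il7r like Mycl1 (0.994), Pglyrp1 (0.992) and Fam198a (0.990). Il15ra was most like Fam105a (0.991), Sh2d1b1 (0.990) and Phgdh (0.989), all 3 of which rose. The genes nearest to Jak3 were Ampd2, Arhgap33 (0.993 each) and Wdr90 (0.992), to Il2ra Kat7 (0.989), Dcbld2 (0.984) and Faxc (0.982), and to Il15 Asf1a (0.992), Bet1 (0.990) and Ttc26 (0.988). None of these last 9 genes passed the test between groups (adjusted p by limma from 0.166 to 0.788).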

How the data were processed

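Total RNA libraries of mouse heart (4 control, 3 ICI-myocarditis) were made with a stranded kit and sequenced as paired-end reads of 150 bases, per the labels. The submitters' processing notes name STAR 2.7.3 and GRCm38. The counting program, annotation and use of strand are not given in the sources used here. The deposited library values are a signal, namely read counts that the authors divided by 1 size factor per library. Every value was a whole multiple of its library's smallest step within 0.001, for 100% of values, so reads were recovered. For control 1 the step was 1.01, which makes whole numbers a weaker sign there. The authors' deposited columns also hold log2 fold changes with errors, a test score and p-values. Rows with names turned into dates (27) or repeated (4) were left out, with 0.142% of the signal, and no library column was identical to another.

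Genes reaching 10 normalized counts in 3 or more libraries entered limma 3.58.1 (under R 4.3.3). It was run on log2 values after adding 1, with a variance trend, robust variances and Benjamini-Hochberg adjustment over all genes tested (threshold 0.05). Relative fits subtracted the log2 value of the reference in the same library from every gene, so each difference also holds the reference's own error. That error is the same for every gene, and pooling variances over genes takes it as almost exactly known. P-values and intervals of the relative fits are therefore too small for 7 libraries. Alternatives used other pseudocounts, filters and scalings, edgeR 4.0.16 and DESeq2 1.42.0 on recovered reads, limma-voom, a replicate block and leaving out each library. The fits were tested on simulated data, in which DESeq2, used here only as an alternative, made more wrong calls than its nominal rate. Chi3l3 and Emr1 of the table were read as Chil3 and Adgre1. Members and lists were chosen with earlier results of these data known. Named genes are all members, the called ligands, receptor chains and signalling genes, the 4 target genes of each list with the lowest p, and the 3 genes most like each member. Genes named beside these were chosen after their values were seen. Lists are described by counts, with no test of the list.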

Additional observations from a re-analysis of the deposited data

Results flagged for a closer look

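In the 4 controls, Il21 was detected in control 2 alone, with 4.93 normalized counts (4 reads), and was 0 in the other controls. The gap to the next library was therefore the whole range of the group (a share of 1.0, above the 95% critical share of Dixon's test), a value that the zeros fix for any count in a single library. On 4 reads it does not show that control 2 differs. Of 22 genes examined this way 1 was picked out, and chance does so for about 1 group in 20.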

How the results depend on the processing

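Il2rb, Il4ra, Il7r and Il21r kept their direction and their call in all 18 alternatives, and Il2rg in 17. The number of members called was 5 in the main fit and 4 to 6 when 1 library was left out. The number of all genes called was 2392, from 983 (without ICI-myocarditis 3) to 3333 (without control 2) when 1 library was left out (1505 without control 1, 1294 without control 3, 1390 without ICI-myocarditis 2), and 3998 with limma-voom and quality weights. The share of calls that were higher was 74.5%, 84.3% with scaling by library size only and 62.8% with DESeq2. Scaling by library size only moved the median log2 fold change of all genes from -0.02 to 0.14, and Il15 then stood at -0.09. Against the mean of T cell markers, the relative differences of Il7r and Il21r turned to -0.29 and -0.21, and leaving out 1 library put that of Il4ra against Il2rg between -0.30 (without control 2) and 0.04 (without control 1), all short of the threshold. The cause was not tested.

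Replicate numbers are shared by the groups, but same-numbered libraries did not deviate together (correlations -0.271, -0.206 and -0.078 for numbers 1 to 3). They were therefore not treated as pairs in the main fit. Whether they share a litter or batch, which the labels do not give, was not tested. A fit with the replicate number as a block called 1777 genes and the same number of members, 5. No ICI-myocarditis library correlated best with the control of its own number. With the block, the relative differences of Il2rb and Jak3 against Ptprc (2.04 and -2.25, adjusted p by limma = 0.0617 and 0.0597) and of Il7r, Il15ra and Il2ra against Il2rg (1.46, -1.35 and -1.31, adjusted p by limma = 0.0686, 0.0930 and 0.0963) missed the threshold. Depth limits what can be said of Il2, Il4, Il9 and Il9r, which had at most 16 reads in any library.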
